A study of Mus musculus with 4 samples.

Results

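The genes that carry pyruvate into mitochondria, run the tricarboxylic acid (TCA) cycle and connect it with glutamate were followed through 34 members, chosen by name for their place in this metabolism. All 34 were found among the 54532 genes of the count table, and all 34 were among the 13922 genes abundant enough to test. RNA came from LL2, a cell line derived from the Lewis lung carcinoma of the mouse. In one group, 20 mM lactic acid was added to the medium for 24 h, and in the other an equal amount of PBS (phosphate-buffered saline) for the same 24 h. There were 2 libraries per group, made from polyadenylated RNA, which the labels call biological replicates without saying whether the cultures were separate. The p-values therefore measure the spread between these libraries, which may be technical. The comparison asks how the transcripts of these enzymes differed between cells given lactic acid and cells given PBS.

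Pyruvate, made by glycolysis or from lactate, enters mitochondria through a carrier of paired subunits and is turned into acetyl-CoA by the pyruvate dehydrogenase complex. Kinases switch this complex off by phosphorylation and phosphatases switch it on again. The TCA cycle then oxidises the acetyl group, while anaplerotic enzymes refill the cycle, cataplerotic ones draw from it, and transaminases and glutamate dehydrogenase exchange its 2-oxoglutarate with glutamate. In tumour cells these steps feed on glucose, lactate and glutamine and also supply citrate for lipids and aspartate for nucleotides.

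Counts summed to 15501006 to 17409990 a library, of which the 34 genes took 0.440% to 0.446% with PBS and 0.461% to 0.468% with lactic acid. These are shares of unscaled totals. The scaling factors applied to the totals for the calls were 0.983 and 0.986 with PBS and 1.017 and 1.015 with lactic acid. Log2 levels of the libraries correlated at 0.993 (PBS) and 0.992 (lactic acid) within a group and at 0.977 between groups, across genes, which are not independent replicates. Of the markers of the cell, Vim, an intermediate filament gene of mesenchymal cells, and the keratin genes Krt8 and Krt18 were abundant, whereas Epcam and Cdh1, markers of epithelia, had at most 2 counts in a library. The summed level of the 5 epithelial markers was 127 and 132 FPKM (reads scaled to gene length and library depth) with PBS and 95.54 and 95.55 FPKM with lactic acid, and that of the 5 mesenchymal markers 971 and 973 against 868 and 878 FPKM. Within the mesenchymal list Vim (64449 and 69334 against 52222 and 55796 counts) and Pdgfrb (228 and 240 against 113 and 115) were lower. Fn1 (20725 and 22832 against 31517 and 33035 counts) and Pdgfra (305 and 314 against 464 and 480) were higher. Of the keratins, Krt8 went from 1887 and 1993 to 830 and 893 counts, whereas Krt18 overlapped between groups (1611 and 1665 against 1570 and 1628). These marker counts are not scaled to library depth. The 5 leukocyte and macrophage markers summed to 4.90 and 5.11 against 6.71 and 7.97 FPKM, led by Cd68, while the defining Adgre1 was at 0 and Ptprc at 0 or 1 count. Of the 5 lymphocyte markers 4 were at 0 in every library, and each of the 5 endothelial markers had under 10 counts. In bulk RNA, fewer cells of a kind and less RNA per cell cannot be told apart, and the part of the epithelial and mesenchymal marker shifts in the results was not tested.

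With lactic acid 13 of the 34 genes were higher, 9 were lower and 12 did not pass the test. The rises were led by the pyruvate dehydrogenase kinase genes Pdk4 (3.64-fold) and Pdk1 (1.41-fold) and by Pck2 (1.57-fold), the mitochondrial enzyme that makes phosphoenolpyruvate from oxaloacetate. The falls were led by Me2, the mitochondrial malic enzyme (1.51-fold lower), and Pdp2, a phosphatase of pyruvate dehydrogenase (1.31-fold lower). Calls are genes with a Benjamini-Hochberg adjusted p below 0.05 over all genes tested, by the quasi-likelihood test of edgeR. That test called 49.0% of all genes, 24.7% higher and 24.3% lower, against 64.7% of the 34. The counts by role below are to be read against these shares.

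The changes of these genes were small. Their median absolute log2 fold change was 0.17, against 0.26 over all genes tested, and 3 of the 34 (Pdk4, Pck2 and Me2) were called with a change of at least 1.5-fold, against 13.8% of all genes. The signed median was 0.01, as it was over all genes (0.01). The middle member rested on 1852 counts a library, against 417 for the middle gene tested, so these genes were measured with more reads than most. In 27 of the 34 the lactic acid libraries lay on one side of both PBS libraries, against 72.3% of all genes. With 2 libraries against 2, a single value tested alone by exact permutation cannot go below a two-sided p of 0.333, so each call borrows its error from the spread that the model estimates over many genes.

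**Figure D1:**
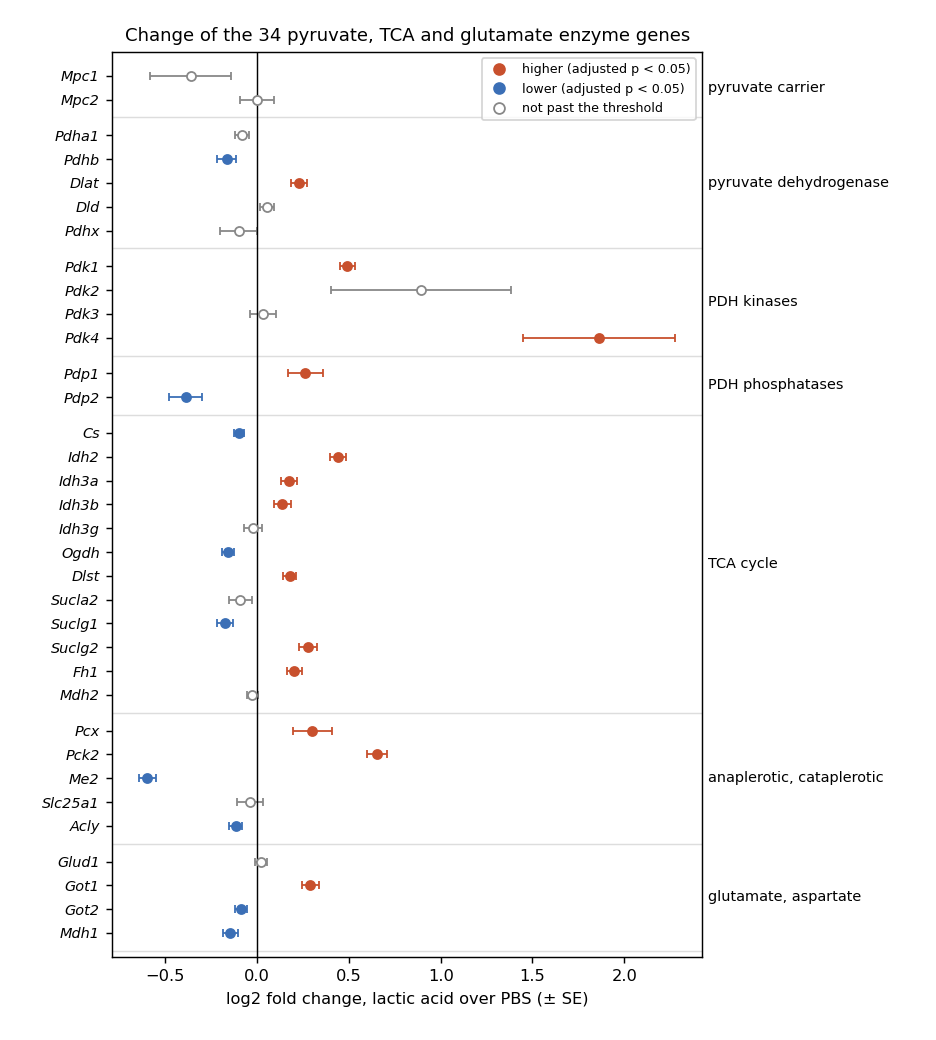
The log2 fold change of each of the 34 genes (lactic acid over PBS, horizontal axis) is drawn with its standard error, grouped by the role of the enzyme; filled points passed the edgeR threshold. The points run from -0.60 for Me2 to 1.86 for Pdk4, and the called genes of the phosphatase, dehydrogenase, cycle, anaplerotic and glutamate groups lie on both sides of 0.

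Levels of different genes are compared here in FPKM, the authors' values per length of gene. Mdh2, the mitochondrial malate dehydrogenase, was the most abundant at 101 to 106 FPKM over the 4 libraries, followed by Cs, the citrate synthase that opens the cycle, at 88.2 to 96.7 FPKM. Got2, Mdh1 and Glud1, which exchange glutamate, aspartate and malate with the cycle, came next at 65.1 to 76.0 FPKM, with ranges that overlapped. These 5 genes had log2 fold changes between -0.15 (Mdh1) and 0.02 (Glud1). At the other end, the kinase genes Pdk4 (0.108 to 0.986 FPKM) and Pdk2 (0.179 to 0.498 FPKM) were the only 2 members with a mean under 1 FPKM, and the carrier genes Mpc2 (3.05 to 3.69 FPKM) and Mpc1 (1.81 to 2.80 FPKM) stood just above them. Of the 33 neighbouring pairs in this order of levels, 26 had overlapping ranges.

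**Figure D2:**
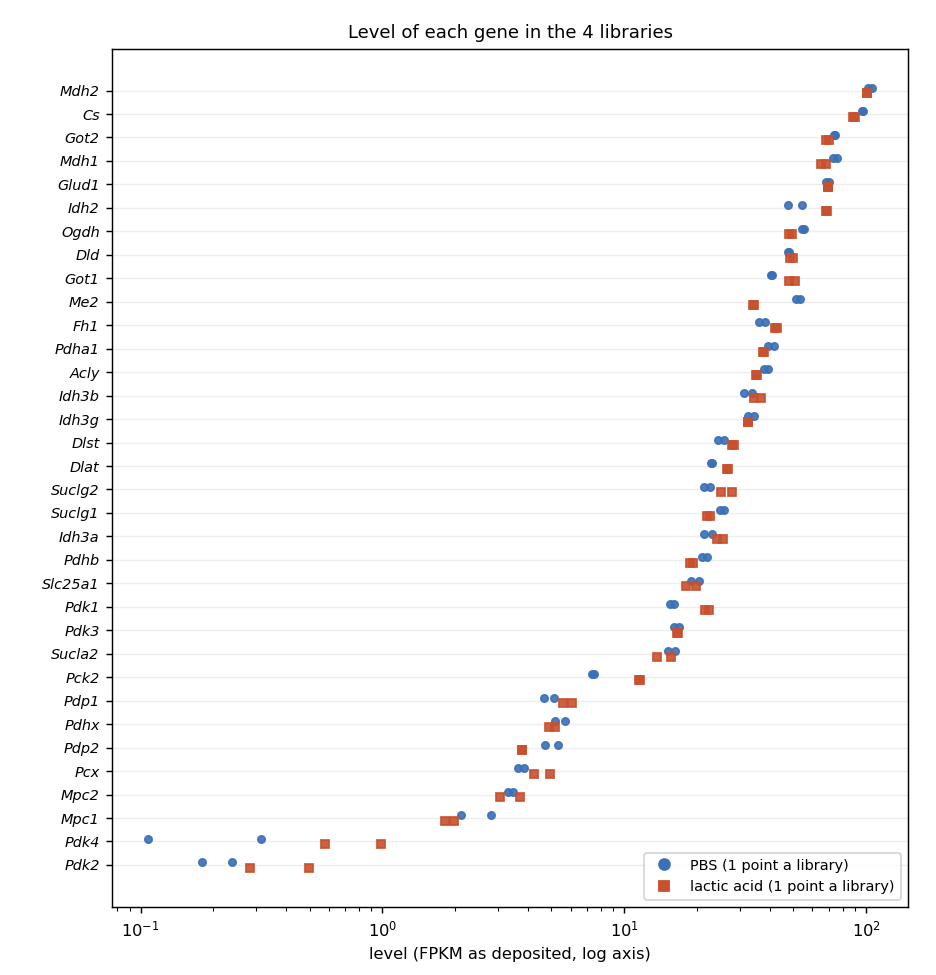
Each row is a gene and each point a library (circles PBS, squares lactic acid), with the deposited FPKM on a log axis; genes are ordered by their mean. Levels run from 0.108 FPKM for Pdk4 to 106 FPKM for Mdh2, and the 2 groups are farthest apart for Pdk4.

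The mitochondrial pyruvate carrier, made of the products of Mpc1 and Mpc2, lets pyruvate cross the inner membrane. Mpc1 measured 4.41 and 5.84 CPM (counts scaled to library size) with PBS and 3.81 and 4.17 CPM with lactic acid. Both lactic acid libraries were below both PBS libraries, yet the difference did not pass (log2 fold change of -0.36 with SE 0.22, edgeR adjusted p = 0.170). This gene had at most 100 counts in a library and overlaps the transcript 4930506C21Rik on the other strand over 480 exonic bases, which held 13.0% as many counts. Mpc2 was at 24.4 and 25.6 CPM with PBS and 27.4 and 22.6 CPM with lactic acid, so the groups overlapped (log2 fold change of 0.00 with SE 0.09, edgeR adjusted p = 0.992).

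Of the 5 genes of the pyruvate dehydrogenase complex, 1 was higher, 1 lower and 3 did not pass. Dlat, which encodes the acetyltransferase core (E2), was at 111 and 113 CPM with PBS and at 132 and 131 CPM with lactic acid. The groups were well apart (log2 fold change of 0.23 with SE 0.04, edgeR adjusted p = 6.27e-06). Pdhb, the beta subunit of the decarboxylase E1, fell from 80.6 and 85.3 to 72.6 and 75.3 CPM (log2 fold change of -0.17 with SE 0.05, edgeR adjusted p = 0.00725). Its call was lost without lactic acid replicate 1 (edgeR adjusted p = 0.0852) and without PBS replicate 2 (0.0917), and also by the DESeq2 Wald test (0.0809), in a range of 0.00272 to 0.0917 over 13 alternatives.

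The catalytic alpha subunit gene Pdha1 stood at 155 and 147 CPM with PBS and at 142 and 143 CPM with lactic acid. All lactic acid values were below the PBS values, but the gene did not pass (log2 fold change of -0.08 with SE 0.04, edgeR adjusted p = 0.0852). The size of this difference depended on the PBS libraries, with a log2 fold change of -0.13 without PBS replicate 2 and -0.04 without PBS replicate 1. Pdha1 shares 426 near-identical bases with Map3k15, a gene that it overlaps on the other strand by 603 exonic bases. Map3k15 had at most 19 counts in a library. Dld, the dihydrolipoamide dehydrogenase (E3) that this complex shares with the 2-oxoglutarate dehydrogenase complex, had a log2 fold change of 0.06 (SE 0.04, edgeR adjusted p = 0.232). Pdhx, which anchors E3 to the core, had one of -0.10 (SE 0.10, edgeR adjusted p = 0.436).

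The pyruvate dehydrogenase kinases phosphorylate E1 and switch the complex off, and 2 of their 4 genes were higher with lactic acid. Pdk1, the isoform known as a target of hypoxia signalling, was at 121 and 125 CPM with PBS and at 176 and 169.5 CPM with lactic acid. The libraries within a group differed little beside the gap between groups (log2 fold change of 0.49 with SE 0.04, edgeR adjusted p = 4.04e-16). Pdk4, the isoform known to be induced by fasting, was scarce at 0.378 and 1.11 CPM with PBS and 3.50 and 2.05 CPM with lactic acid. These values rest on 6 and 19 counts against 55 and 34, and both lactic acid libraries were above both PBS libraries (log2 fold change of 1.86 with SE 0.41, edgeR adjusted p = 1.54e-04). The size of the Pdk4 rise depended on single libraries: the log2 fold change was 2.84 without PBS replicate 2 and 1.31 without PBS replicate 1, with the call kept in both.

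On GRCm38, in the positions of the deposited table, Pdk1 (ENSMUSG00000006494, plus strand) spans chromosome 2 from 71873224 to 71903858 and Pdk4 (ENSMUSG00000019577, minus strand) chromosome 6 from 5483351 to 5496309. Pdk3 did not pass, with 43.1 and 41.1 CPM against 42.9 and 43.1 CPM (log2 fold change of 0.03 with SE 0.07, edgeR adjusted p = 0.752). Pdk2 had only 9 and 13 counts with PBS and 25 and 15 with lactic acid, and did not pass (log2 fold change of 0.89 with SE 0.49, edgeR adjusted p = 0.130). By level per length, Pdk1 and Pdk3 made up nearly all kinase transcript. Pdk1 took 47.6% and 49.1% of the summed kinase FPKM with PBS and 55.3% and 55.2% with lactic acid, while Pdk3 took 51.55% and 49.2% against 41.0% and 42.6%. The sum itself was 32.6 FPKM in both PBS libraries and 40.4 and 39.2 FPKM with lactic acid.

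The phosphatases, which remove the inhibitory phosphates, went in opposite directions. Pdp2 was at 30.2 and 26.7 CPM with PBS and at 21.7 and 21.6 CPM with lactic acid, with no overlap (log2 fold change of -0.39 with SE 0.09, edgeR adjusted p = 3.17e-04). Pdp1, the calcium-stimulated isoform, was at 23.1 and 21.1 CPM against 27.6 and 25.3 CPM (log2 fold change of 0.26 with SE 0.09, edgeR adjusted p = 0.0170). The Pdp1 call was lost without lactic acid replicate 1 (edgeR adjusted p = 0.186) and without PBS replicate 2 (0.194), in a range of 0.0109 to 0.194. It was also lost by the DESeq2 Wald test (adjusted p = 0.158) and by limma on log2(FPKM + 1) and log2(FPKM + 0.1) (0.0692 and 0.0679). The ratio of Pdp1 to Pdp2 in FPKM was 0.965 and 0.995 with PBS and 1.61 and 1.48 with lactic acid. The ratio of all kinase to all phosphatase FPKM was 3.13 and 3.48 with PBS and 4.10 and 4.20 with lactic acid, so that the groups did not overlap (exact permutation test, two-sided p = 0.333, the smallest this design allows).

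**Figure D3:**
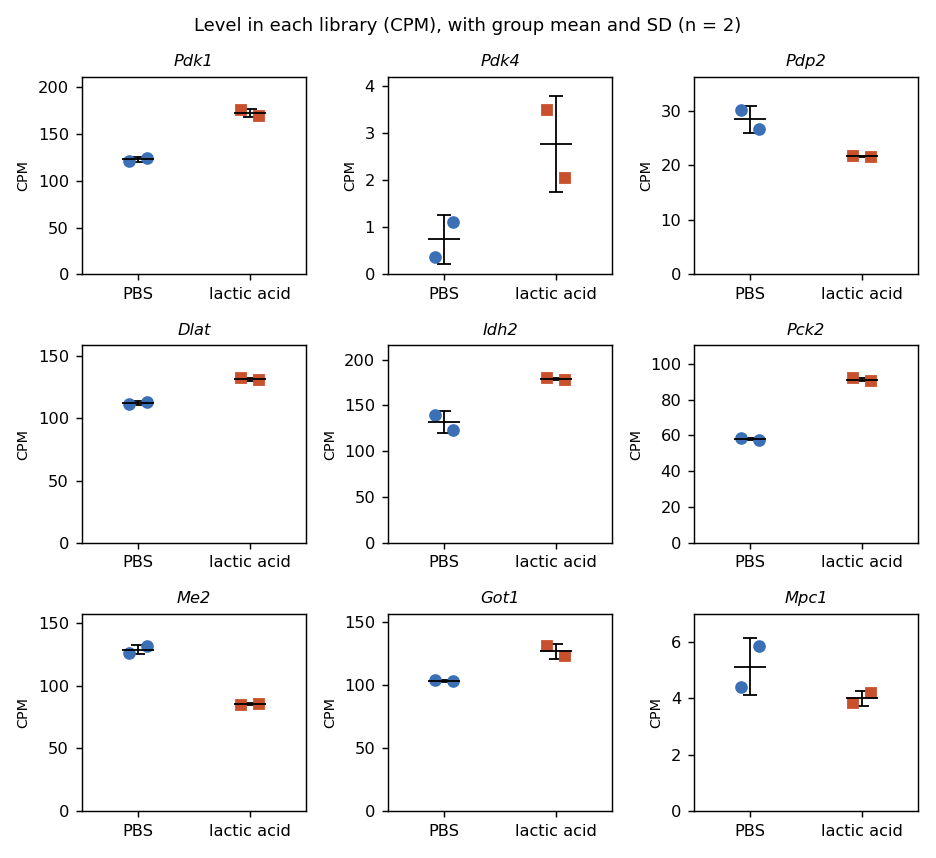
For 9 genes, the level in each library (points, CPM on a linear axis from 0) is drawn for PBS and lactic acid, with the group mean and SD (n = 2). Pdk1, Pdk4, Dlat, Idh2, Pck2 and Got1 are higher and Me2 and Pdp2 lower with lactic acid; the libraries of a group spread from 2.05 to 3.50 CPM for Pdk4 with lactic acid, and from 124 to 140.0 CPM for Idh2 and 26.7 to 30.2 CPM for Pdp2 with PBS.

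Of the 12 genes placed in the TCA cycle, 6 were higher, 3 lower and 3 did not pass. The one furthest from its PBS level was Idh2, the NADP-dependent isocitrate dehydrogenase of mitochondria, at 140.0 and 124 CPM with PBS and 179.7 and 178 CPM with lactic acid. The lactic acid libraries were nearly equal and both above the PBS libraries, which were further from each other (log2 fold change of 0.44 with SE 0.04, edgeR adjusted p = 5.20e-11). Cs, the entry enzyme, was lower at 514 and 527 CPM against 557 and 559 CPM (log2 fold change of -0.10 with SE 0.03, edgeR adjusted p = 0.00208). Fh1, the fumarase, was higher at 143 and 146 CPM against 129.9 and 122 CPM (log2 fold change of 0.20 with SE 0.04, edgeR adjusted p = 3.25e-05). Mdh2, which closes the cycle by making oxaloacetate, did not pass, at 364 CPM in both lactic acid libraries and 364 and 377 CPM with PBS (log2 fold change of -0.03 with SE 0.03, edgeR adjusted p = 0.524).

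The NAD-dependent isocitrate dehydrogenase is built of the subunits encoded by Idh3a, Idh3b and Idh3g. Idh3a, the catalytic subunit, was at 108 and 117 CPM with PBS and at 131 and 124 CPM with lactic acid (log2 fold change of 0.17 with SE 0.04, edgeR adjusted p = 7.35e-04). Idh3b was at 115 and 107 against 127 and 118 CPM (log2 fold change of 0.14 with SE 0.05, edgeR adjusted p = 0.00853). Idh3g was at 93.0 and 87.5 against 89.0 and 88.8 CPM and did not pass (log2 fold change of -0.02 with SE 0.05, edgeR adjusted p = 0.746). The first call was lost without PBS replicate 1 (edgeR adjusted p = 0.0578) and by limma on log2(FPKM + 1) and log2(FPKM + 0.1) (0.0674 and 0.0650), in a range from 6.66e-05. That of Idh3b was lost without lactic acid replicate 1 (0.220) and without PBS replicate 2 (0.242, the highest of a range from 0.00158), and also by DESeq2 (0.146) and by both limma fits (0.123 and 0.120). Idh3b also overlaps Nop56 on the other strand, by 5 exonic bases, and Nop56 held 348% as many counts.

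The 2-oxoglutarate dehydrogenase complex, which makes succinyl-CoA, changed in both directions. Ogdh, its decarboxylase (E1), was at 302.5 and 296 CPM with PBS and at 265 and 271 CPM with lactic acid (log2 fold change of -0.16 with SE 0.03, edgeR adjusted p = 7.50e-05). Dlst, its succinyltransferase core (E2), was at 246 and 234 CPM against 274 and 269 CPM (log2 fold change of 0.18 with SE 0.04, edgeR adjusted p = 2.23e-05). The groups did not overlap for either gene. The FPKM ratio of Dlst to Ogdh, chosen after its values were seen, restates these opposite changes. It was 0.465 and 0.452 with PBS and 0.589 and 0.567 with lactic acid.

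Succinyl-CoA ligase pairs the alpha subunit of Suclg1 with a beta subunit that makes either ATP (Sucla2) or GTP (Suclg2). Suclg1 was lower, at 106 and 102 CPM against 119.8 and 115 CPM (log2 fold change of -0.17 with SE 0.04, edgeR adjusted p = 7.12e-04). Suclg2 was higher, at 129.6 and 117 CPM against 105 and 98.6 CPM (log2 fold change of 0.28 with SE 0.05, edgeR adjusted p = 2.09e-06). Sucla2, at 62.7 and 54.7 CPM against 64.7 and 60.5 CPM, had overlapping groups and did not pass (log2 fold change of -0.09 with SE 0.06, edgeR adjusted p = 0.228), though it did without lactic acid replicate 1 (0.0395). By FPKM, the ratio of Sucla2 to Suclg2 went from 0.715 and 0.711 with PBS to 0.560 and 0.543 with lactic acid. Suclg2 has a near-identical pseudogene, Gm15163, for which PBS libraries held 98 and 116 counts and lactic acid libraries 100 and 168, or 6.58% of its own counts in all, so its value is uncertain by the reads the pair may share.

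Among the 5 anaplerotic and cataplerotic genes 2 were higher, 2 lower and 1 did not pass. Pck2 draws oxaloacetate from the cycle as phosphoenolpyruvate and was at 58.5 and 57.5 CPM with PBS and at 91.9 and 90.5 CPM with lactic acid. The lactic acid libraries were close to each other and far above both PBS libraries (log2 fold change of 0.65 with SE 0.05, edgeR adjusted p = 9.23e-16). The gene (ENSMUSG00000040618) spans chromosome 14 from 55540266 to 55551242 of GRCm38, plus strand. Me2, which turns malate into pyruvate inside mitochondria, was at 126 and 131 CPM with PBS and at 84.4 and 85.6 CPM with lactic acid. Its adjusted p was the smallest of the 34 genes (log2 fold change of -0.60 with SE 0.05, edgeR adjusted p = 1.42e-17).

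Pcx, the pyruvate carboxylase that makes oxaloacetate from pyruvate, was at 16.9 and 17.9 CPM with PBS and at 23.0 and 19.8 CPM with lactic acid (log2 fold change of 0.30 with SE 0.11, edgeR adjusted p = 0.0164). Without lactic acid replicate 1 (edgeR adjusted p = 0.272, log2 fold change 0.19) or PBS replicate 1 (0.108) that call was lost, in a range of 0.00690 to 0.272. It was also lost by DESeq2 (adjusted p = 0.147) and by both limma fits (0.0772 and 0.0751). Acly, which splits exported citrate into acetyl-CoA and oxaloacetate in the cytosol, was lower at 189 and 186 CPM against 207 and 200.1 CPM (log2 fold change of -0.12 with SE 0.04, edgeR adjusted p = 0.00672). This call too was lost without PBS replicate 1 (edgeR adjusted p = 0.0978, in a range of 0.00402 to 0.0978) and by DESeq2 (0.0523). Slc25a1, the carrier that exports that citrate, had overlapping groups at 39.4 and 43.1 against 44.0 and 40.8 CPM (log2 fold change of -0.04 with SE 0.07, edgeR adjusted p = 0.697).

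Of the 4 genes that exchange glutamate, aspartate and malate with the cycle, 1 was higher, 2 lower and 1 did not pass. Got1, the cytosolic aspartate transaminase, was at 104 and 103 CPM with PBS and at 130.3 and 122 CPM with lactic acid (log2 fold change of 0.29 with SE 0.04, edgeR adjusted p = 9.52e-08). Got2, its mitochondrial counterpart, was slightly lower at 341 and 332 CPM against 355 and 359.9 CPM (log2 fold change of -0.09 with SE 0.03, edgeR adjusted p = 0.0187). The Got2 call was lost without lactic acid replicate 2 (edgeR adjusted p = 0.146) and without PBS replicate 2 (0.0936), in a range of 0.0107 to 0.146. It was also lost under upper-quartile scaling (0.0695), by DESeq2 (adjusted p = 0.0682) and by limma on log2(FPKM + 1) (0.05004). A near-identical pseudogene, Got2-ps1, held 0.680% as many counts. Mdh1, the cytosolic malate dehydrogenase, was lower at 169 and 177 CPM against 195 and 187 CPM (log2 fold change of -0.15 with SE 0.04, edgeR adjusted p = 0.00118). Glud1, the glutamate dehydrogenase, did not pass, at 296 and 296 CPM against 296 and 288 CPM (log2 fold change of 0.02 with SE 0.03, edgeR adjusted p = 0.663).

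A search of start regions was planned for called members above a limit of fold change. Pdk4, Pck2 and Me2 passed this limit. Got1 (log2 fold change 0.29) did not and was added, and the start region of Me2 is not shown. Those of Pck2 and Got1 are shown because both genes rose and alone among the members held a core of the ATF4 element. ATF4 is a stress-induced transcription factor. The 2 genes were thus picked by their rise and their match, and a link between these was not tested. The windows run from 250 bases before to 50 bases after the RefSeq start (GRCm38.p6), at chr14:55540016-55540315 on the plus strand for Pck2 and chr19:43524556-43524855 on the minus strand for Got1, and are written 5′ to 3′ along the gene with motif matches in capitals.
Pck2: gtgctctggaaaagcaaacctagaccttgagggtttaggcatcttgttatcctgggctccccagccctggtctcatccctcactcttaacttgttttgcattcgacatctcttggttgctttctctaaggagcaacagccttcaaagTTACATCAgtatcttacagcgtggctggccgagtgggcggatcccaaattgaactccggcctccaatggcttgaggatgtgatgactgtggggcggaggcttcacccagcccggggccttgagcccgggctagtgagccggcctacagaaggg
Got1: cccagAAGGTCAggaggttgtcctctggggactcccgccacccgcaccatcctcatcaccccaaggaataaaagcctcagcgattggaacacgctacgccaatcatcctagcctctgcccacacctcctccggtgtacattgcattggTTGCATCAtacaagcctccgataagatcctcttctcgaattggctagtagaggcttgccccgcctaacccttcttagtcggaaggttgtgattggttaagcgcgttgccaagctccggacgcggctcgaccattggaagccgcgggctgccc
In Got1 the capitals mark TGATGCAA, read on the other strand and beginning 102 bases before the start, and AAGGTCA, a site bound by ERR receptors. In Pck2 they mark a match to the looser TGATGNAA, also on the other strand, beginning 103 bases before the start. TGATGCAA was found in 0.895% of 32851 start windows of that length and in 1 of the 31 members with a window, and TGATGNAA, which includes it and was searched after the first motif had been looked at, in 3.97% and in 2 of 31. Of the other motifs searched on both strands, CACGTG was held by 5 of 31 members (Ogdh, Pcx, Pdk2, Pdp2 and Slc25a1) and 7.15% of windows. AAGGTCA was held by 2 (4.72%), GCGCATGC by 2 (2.71%) and TGACTCA by 0 (5.20%). These matches describe letters only, and the Pdk4 window held no match to any of the 6 motifs.

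Many of these reactions exist on both sides of the mitochondrial membrane, and the ratio of the partner genes within a library is free of the scaling between libraries. Got1 over Got2 was 0.556 and 0.542 with PBS and 0.726 and 0.701 with lactic acid by FPKM, a shift towards the cytosolic gene. Mdh1 over Mdh2 was 0.744 and 0.690 against 0.643 and 0.675, a smaller shift towards the mitochondrial gene in which the groups were barely apart. The next pairs, each of a member with its partner in the other compartment, were chosen after their values were seen. Idh2 over Idh1, the NADP-dependent enzymes of mitochondria and cytosol, was 1.62 and 1.42 with PBS and 4.55 and 3.92 with lactic acid. Me1 over Me2, the cytosolic and mitochondrial malic enzymes, was 0.292 and 0.269 against 0.570 and 0.578. In each of these 4 ratios the groups did not overlap, and an exact permutation test gave the two-sided p of 0.333 that is the smallest possible here. The direction was not common to them: the ratio shifted towards the mitochondrial gene for isocitrate and malate dehydrogenation, the latter with Mdh1 lower and Mdh2 not called, and towards the cytosolic gene for transamination and the malic enzymes.

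Subunits of a complex can be set side by side in the same way. Pdha1 over Pdhb, the subunits of E1, was 1.99 and 1.78 with PBS and 2.01 and 1.97 with lactic acid, so the groups overlapped. Dlat over Pdha1, a ratio of core to E1 chosen after its values were seen, was 0.549 and 0.591 against 0.715 and 0.697. Idh3a over Idh3b overlapped between groups (0.633 and 0.738 against 0.700 and 0.705), whereas Idh3b over Idh3g did not (0.980 and 0.968 against 1.12 and 1.05). Mpc1 over Mpc2 overlapped at 0.638 and 0.805 against 0.491 and 0.651.

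**Figure D4:**
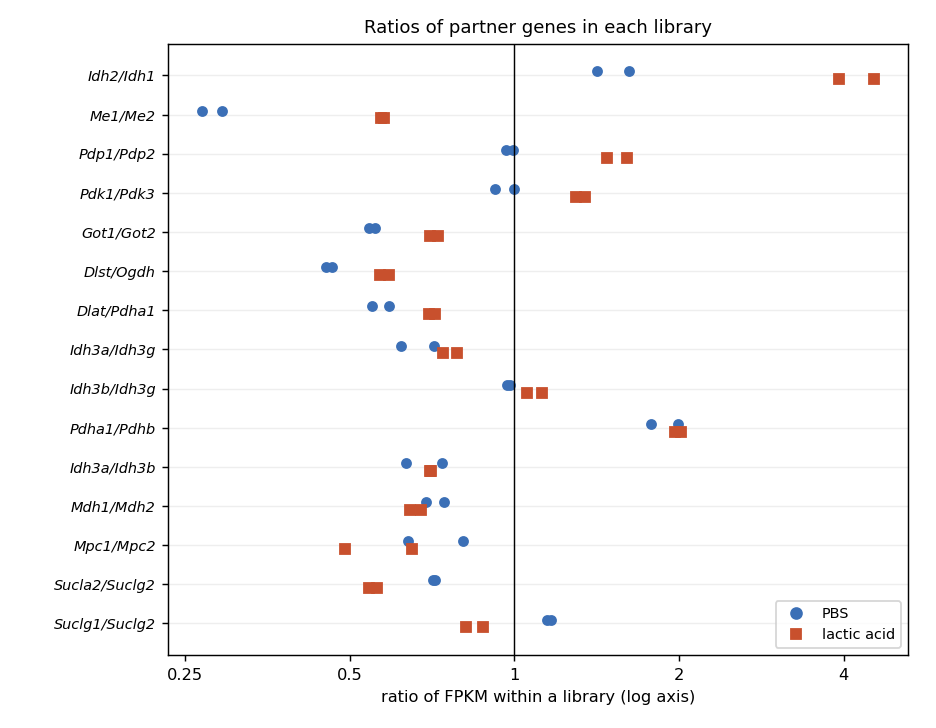
Ratios of the FPKM of 2 genes within each library (log axis; circles PBS, squares lactic acid) are drawn for subunits of a complex, isoforms, and cytosolic and mitochondrial counterparts. Idh2/Idh1 (1.42 and 1.62 against 3.92 and 4.55) and Me1/Me2 stand furthest apart, while the groups overlap for Pdha1/Pdhb, Idh3a/Idh3b and Mpc1/Mpc2.

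A further 51 genes of the same pathways were listed by function, of which 46 could be tested. With lactic acid 16 were higher, 10 lower and 20 did not pass, so 56.5% were called, against 49.0% of all genes. Of 13 tested genes of glutamine and glutamate use, 8 were higher and 1 lower (24.7% and 24.3% of all genes). Their median log2 fold change was 0.43 against 0.01 over all genes, in a list chosen with earlier results of these data known. Gpt2, the mitochondrial alanine transaminase that turns pyruvate and glutamate into alanine and 2-oxoglutarate, was at 26.3 and 29.5 CPM with PBS and at 75.6 and 72.9 CPM with lactic acid (log2 fold change of 1.41 with SE 0.07, edgeR adjusted p = 1.24e-25). Glul, the glutamine synthetase, rose 1.42-fold and Aldh5a1, which feeds the GABA shunt into succinate, 1.94-fold. Asns and Aldh18a1, which use glutamine and glutamate for asparagine and proline, rose 1.68-fold and 1.70-fold. Psat1, Oat, Gpt and Aldh4a1 did not pass, and Ppat, the first enzyme of purine synthesis, was lower (log2 fold change -0.31), though it overlaps Paics on the other strand. Gls2, counted among the higher genes, overlaps Spryd4 in the same way, which held 96.1% as many counts.

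Of 6 tested mitochondrial carriers, 4 were lower and 0 higher (24.3% and 24.7% of all genes), with a median log2 fold change of -0.34. Slc25a12, an aspartate and glutamate carrier of the malate-aspartate shuttle, was at 94.1 and 89.1 CPM with PBS and at 70.2 and 68.0 CPM with lactic acid (log2 fold change of -0.41 with SE 0.05, edgeR adjusted p = 1.71e-09). Its paralog Slc25a13 (-0.35), the 2-oxoglutarate and malate carrier Slc25a11 (-0.32) and the dicarboxylate carrier Slc25a10 (-0.40) were lower too, and are named after their values were seen. Slc25a11 overlaps Rnf167 on the other strand, and Slc25a21, which did not pass, overlaps Pax9. With Mdh1 and Got2, which also work in that shuttle, 5 of its 7 listed genes, grouped after their values were seen, were lower, against 24.3% of all genes, Got1 was higher and Mdh2 did not pass. One of the 5, Got2, lost its call in 5 of 13 alternatives.

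Among anaplerotic genes and cytosolic partners 4 were higher and 3 lower of 7 tested (24.7% and 24.3% of all genes). Of the higher ones, Mut overlaps Cenpq and Pcca overlaps Ggact on the other strand, with 51.0% and 17.9% as many counts. Idh1 was at 92.5 and 93.5 CPM with PBS and at 42.3 and 48.6 CPM with lactic acid (log2 fold change of -1.03 with SE 0.06, edgeR adjusted p = 3.18e-22). Of 4 genes of succinate dehydrogenase, the flavoprotein gene Sdha was lower (log2 fold change -0.13), while Sdhb, Sdhc and Sdhd did not pass. The related 2-oxoacid dehydrogenases, listed with their regulators, had 3 higher of 8 (24.7% of all genes). One of the 3 was Ppm1k, a phosphatase. Ogdhl, a paralog of Ogdh, was 1.48-fold higher at 60.7 and 59.4 CPM against 39.1 and 41.8 CPM. In FPKM Ogdhl remained the scarcer of the pair, at 0.170 and 0.186 of Ogdh with PBS and 0.301 and 0.288 with lactic acid. This ratio too was chosen after its values were seen. The genes of lipoate and thiamine cofactors had 1 higher, 1 lower and 6 of 8 that did not pass. The higher one, Mcat, overlaps Tspo on the other strand, which held 384% as many counts, and Lipt1, which did not pass, overlaps Mitd1 likewise.

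**Figure D5:**
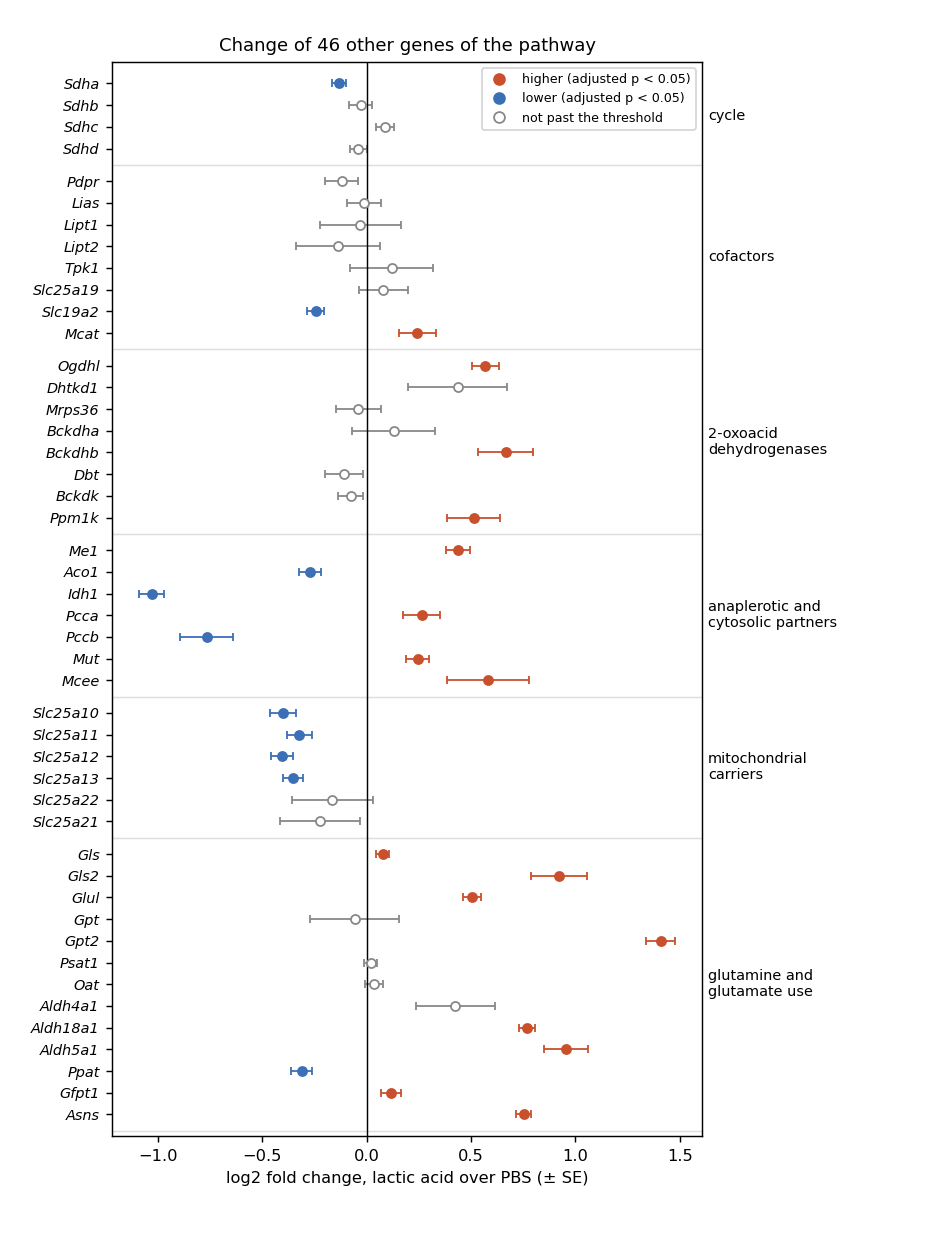
The log2 fold change of 46 further genes of the pathway (lactic acid over PBS, with standard error) is drawn by function, with filled points past the edgeR threshold. Gpt2 lies furthest to the right at 1.41 and Idh1 furthest to the left at -1.03, and the 6 mitochondrial carriers all lie left of 0, 4 of them past the threshold.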

How the data were processed

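The deposited table of whole-number read counts per gene, unscaled, was the main input. Per the submitters' processing notes, the tools were DESeq2 1.16.1, StringTie 1.3.3b, featureCounts 1.5.0-p3, HISAT2 2.0.5 and CASAVA and the builds mm10 and GRCm38.p6, with no step assigned, and treatment of strand and of shared reads is not given in the sources used here. Per the labels' protocols, a NEBNext Ultra kit was used for the libraries. FPKM values deposited by the authors equal count over gene length over 1 constant a library (0.982 to 1.025 times its total, relative tolerance 1e-06).

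The filter filterByExpr was applied (at least 10 counts, total 15) with TMM scaling (factors 0.983 to 1.017). edgeR 4.0.16 in R 4.3.3 fitted a robust quasi-likelihood model with the group as its term to the whole table, two-sided. Adjusted p-values (Benjamini-Hochberg) cover every gene kept. The standard error is the log2 fold change over the square root of F. A total of 3 counts corresponds to 0.172 to 0.194 CPM, for counting error only. The procedure was tested on simulated data in which only a small part of the genes changed. That test checked the direction and median size of the changes. It did not check the rate of false calls where as many genes change as here. Near-identical copies were sought with blastn 2.17.0 (98% identity over 300 bases, GENCODE M21 transcripts), and overlapping genes are named at 10% or more of the counts of a tested gene.

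The members, lists and motifs were chosen with earlier results of these data known. Values in every library are given for called members with an absolute log2 fold change of at least 0.3 and for the smallest p in each role, and of the other genes the 8 with the smallest p were to be named. A listed gene is not reported here. Alternatives were RLE and upper-quartile scaling, a DESeq2 1.42.0 Wald test, no or a stricter filter (50 counts in 2 libraries), no robust settings, a replicate block, limma 3.58.1 on log2(FPKM + 1) and log2(FPKM + 0.1), and leaving out each library.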

Additional observations from a re-analysis of the deposited data

How the results depend on the processing

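Of the 22 called genes 15 passed in every one of the 13 alternatives that tested them, and none of the 22 changed direction. The stricter filter left 32 of the 34 members, without Pdk2 and Pdk4. The other 7 (Pdhb, Pdp1, Idh3a, Idh3b, Pcx, Acly and Got2) lost their call in 2 to 5 alternatives, and the cause was not tested. The members counted higher ranged from 9 to 13 and lower from 6 to 9, the lowest under limma on FPKM and under DESeq2. Leaving out a library gave 10 to 13 higher and 8 to 9 lower. DESeq2 dropped 6 of these 7, all but Idh3a. Over all genes it called 2251 higher and 2494 lower, against 3445 and 3377, so the share called by edgeR is higher than by DESeq2. On log2(FPKM + 1) the Pdk4 change was 0.55, since the added 1 exceeds its level.

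Some genes that did not pass changed sign. Mpc2 was 0.018 under upper-quartile scaling and 0.0049 under the stricter filter. Without single libraries the log2 fold change ran from -0.146 to 0.132 for Mpc2, from -0.010 to 0.061 for Pdk3, from -0.073 to 0.019 for Idh3g, from -0.194 to 0.0019 for Sucla2, from -0.107 to 0.023 for Slc25a1 and from -0.0097 to 0.038 for Glud1. The replicate numbers are shared by the groups, but deviations of same-numbered libraries did not go together (correlation 0.004), and with the replicate block 13 members were higher and 9 lower. Ratios between genes are the same by count per length because of how FPKM is built. Leaving out each library, added after seeing the data, cannot move a ratio by more than 1 SD with 2 libraries a group, so it says nothing about the stability of the ratios. Low counts limit Pdk4, Pdk2 and Mpc1.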
